A study of Mus musculus with 6 samples.

Results

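T cell receptor complex genes were examined in chromatin accessibility data from monocytic myeloid-derived suppressor cells (M-MDSCs), myeloid cells that hold back T cell responses. The 9 genes were Trac, Cd3d, Cd3e, Cd3g, Cd247, Cd4, Cd8a, Lck and Zap70, out of 21959 protein-coding and T cell receptor constant genes in the annotation. The genes were a fixed list, and their peaks were chosen by position: every peak of the 6 deposited lists that overlapped the gene body or 20 kb on either side was taken. This gave 9 of the 11800 peaks, 7 of them gained with MS-275, 1 lost with MS-275 and 1 lost with CXD101. The gene list itself was drawn up with earlier results of these lists known, so the counts are a description and were not tested.

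Young female wild-type C57BL/6J mice, a few weeks of age, carried Hepa 1-6 cells, a mouse hepatoma line, as an orthotopic tumor in the liver. They received vehicle, MS-275 or CXD101 by daily intraperitoneal injection. Both compounds inhibit the class I histone deacetylases HDAC1, HDAC2 and HDAC3, which take acetyl groups off histone tails. CD11b+ Ly-6C hi Ly-6G- cells were sorted from the tumors, and ATAC-seq, in which a transposase inserts adapters into open DNA, was run on 2 libraries per group and 6 in all. The mice had been selected on their blood MDSC proportion. The libraries of each group were pooled before peak calling, so no value below has a replicate error. The 6 lists hold only sites that differed between a pair of groups, and genes without a call have no level in them. All lists against vehicle share the same vehicle libraries.

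The T cell receptor is a pair of variable chains, usually alpha and beta, that recognize peptides on MHC molecules and carry no signalling tail of their own. The CD3 gamma, delta and epsilon chains and the CD247 (zeta) chain form the signalling part of the complex. The coreceptors CD4 and CD8 bring the kinase LCK to it. LCK phosphorylates the CD3 and zeta tails, ZAP-70 binds there, and the signal passes on to adaptors such as LAT and SLP-76. The complex is a defining feature of T cells, and myeloid cells do not use it. The alpha and beta loci are assembled by DNA rearrangement in developing T cells, and a well studied enhancer of the alpha locus lies between the constant region Trac and the neighboring gene Dad1. Its core is known for sites of CREB/ATF, TCF/LEF, RUNX and ETS factors.

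The peaks of the receptor complex lay in 3 places: after the end of Trac, in the Cd3g, Cd3d and Cd3e cluster, and inside Cd247. The sequences at 4 of the gained summits are shown: the 2 summits of the first Trac interval with the highest −log10 p-values, the last Trac summit, and the single Cd247 summit. They are the 250 bp around each summit, plus strand, 5′ to 3′, in mm10 (GRCm38). Capitals mark matches, on either strand, to short words known for families of transcription factors. The word searched for RUNX factors was TGTGGT, and that for ETS factors was CAGGAAG. For GATA factors it was AGATAA, and for TCF/LEF factors it was CTTTGA. The E-box word was CAGCTG. AP-1 was searched as TGACTCA and also as its reverse complement TGAGTCA. PU.1 was searched as GAGGAAGT, and the ATF/CREB word was TGACGTCA. The ETS and PU.1 words share the letters AGGAAG. The ATF/CREB word was added after the sequences had been seen.
First Trac summit (chr14:54227338-54227587): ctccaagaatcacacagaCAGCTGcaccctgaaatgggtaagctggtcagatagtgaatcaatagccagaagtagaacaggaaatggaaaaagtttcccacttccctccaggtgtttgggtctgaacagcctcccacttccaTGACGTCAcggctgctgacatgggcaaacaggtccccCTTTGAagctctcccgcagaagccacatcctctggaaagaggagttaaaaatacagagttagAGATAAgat
Second Trac summit (chr14:54227696-54227945): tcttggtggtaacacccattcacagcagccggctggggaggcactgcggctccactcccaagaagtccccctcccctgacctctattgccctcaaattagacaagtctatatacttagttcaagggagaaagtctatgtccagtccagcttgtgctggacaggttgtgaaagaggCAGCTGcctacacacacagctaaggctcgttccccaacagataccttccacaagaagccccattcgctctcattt
Last Trac summit (chr14:54233427-54233676): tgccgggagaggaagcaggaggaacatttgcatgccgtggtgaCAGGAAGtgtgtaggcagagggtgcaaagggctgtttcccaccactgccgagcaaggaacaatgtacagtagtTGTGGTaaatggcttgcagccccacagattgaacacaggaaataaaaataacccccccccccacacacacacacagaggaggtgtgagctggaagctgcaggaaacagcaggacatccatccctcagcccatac
Cd247 summit (chr1:165848852-165849101): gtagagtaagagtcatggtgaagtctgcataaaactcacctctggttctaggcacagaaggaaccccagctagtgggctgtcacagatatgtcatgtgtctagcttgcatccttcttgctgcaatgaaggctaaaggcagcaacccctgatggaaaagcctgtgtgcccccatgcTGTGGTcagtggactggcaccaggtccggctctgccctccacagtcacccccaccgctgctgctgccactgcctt

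The first Trac sequence held 4 of these words. They were CAGCTG at bases 19 to 24, TGACGTCA at bases 143 to 150, CTTTGA at bases 180 to 185 and AGATAA at bases 242 to 247, counted from the 5′ end. TGACGTCA was found at 0.248% of the 8480 MS-275 gained peaks in a window of the same length, and CTTTGA at 14.7%, CAGCTG at 14.7% and AGATAA at 11.2%. The ATF/CREB word was picked after the sequences had been seen, and it is longer than most of the other words. Its low share, and its presence at the first Trac summit alone among the member peaks, therefore carry no weight. The second Trac sequence held CAGCTG at bases 176 to 181. The last printed Trac sequence held CAGGAAG at bases 44 to 50 and TGTGGT at bases 117 to 122, words found at 14.4% and 19.6% of the list. The third Trac summit held none of the words, and the fourth held AGATAA and, on the minus strand, CTTTGA. The Cd247 sequence held TGTGGT at bases 176 to 181. No member summit held the AP-1 or PU.1 word, which were found at 3.49% and 2.82% of MS-275 gained peaks and at 24.9% and 3.76% of MS-275 lost peaks. A match is a description of the letters and does not show binding. Only these exact words were searched, so the lack of a match does not show that a site is absent. The GC content of the gained Trac and Cd247 windows ran from 48.4% to 55.2%, around the list median of 50%.

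Trac (ENSMUSG00000076928.5, chromosome 14 from 54220521 to 54224206, plus strand), the constant region of the receptor alpha chain, had 5 of the 7 gained peaks. They lay in 2 intervals of the intergenic stretch of 11.3 kb between Trac and Dad1, and the nearest gene start was that of Trac for each of them. The first interval ran from 54227183 to 54228299 and began 2977 bp after the end of Trac. It was 1117 bp long and held 3 summits. Of the 7071 MS-275 gained intervals, 99.3% were shorter, with a median of 244 bp, and 184 (2.6%) had as many summits. The second interval ran from 54233202 to 54233614, 4.9 kb further on, and held 2 summits. It began 8996 bp after the end of Trac and was nearer to the 3′ end of Dad1, at 54235479. None of the 5 peaks was in the CXD101 gained list or in the list of MS-275 over CXD101.

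At the first Trac summit, 6.94 kb from the start of Trac, 85 MS-275 tags, or 74.3 at vehicle depth, stood over a vehicle level of 30. The fold enrichment, the ratio of these levels after 1 is added to each, was 2.43, at a −log10 p-value of 11.4. At the second summit 100 MS-275 tags, or 87.4 at vehicle depth, stood over a vehicle level of 28.8, and the fold enrichment was 2.97 (−log10 p-value 18.2). This was the strongest member peak, and 86.5% of MS-275 gained peaks had a lower −log10 p-value. The third summit had 65 MS-275 tags where vehicle stood at 21, and its fold enrichment was 2.63 (−log10 p-value 10.2). The vehicle level at these 3 summits was higher than at most gained sites, since from 67.7% to 85% of the list had a lower one. The control level is an upper estimate, so open chromatin at this interval in vehicle is not shown by it.

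The second Trac interval was weaker. Its summits had 32 MS-275 tags where vehicle stood at 10 and 41 tags where vehicle stood at 15, with fold enrichments of 2.63 and 2.3 and −log10 p-values of 5.65 and 5.52. Their fold enrichments were within the range of the first interval, whereas their tags were fewer. Within the alpha and delta locus itself, from its first annotated segment to the end of Trac (1796 kb with 200 segments), no list had a peak. The beta locus, 667.2 kb long, had none either. The accessible sites gained with MS-275 were thus after the constant region and not at the variable or joining segments. Whether the first interval is the known alpha enhancer was not tested.

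**Figure D1:**
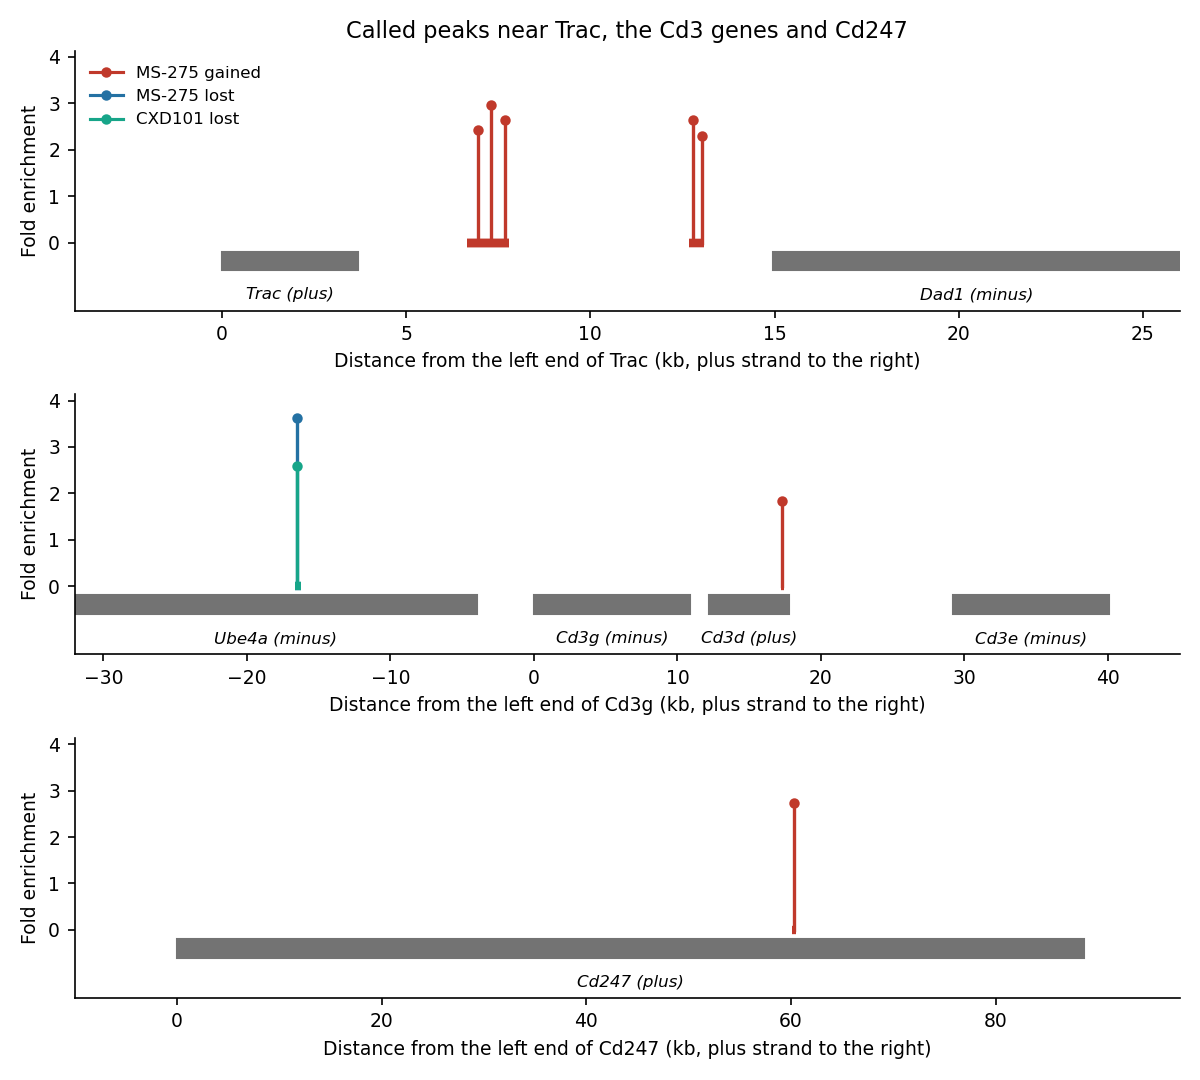
Fold enrichment (vertical axis) of each called peak against its distance in kb from the left end of Trac, Cd3g or Cd247 (horizontal axes), with gene bodies as grey bars and their strand in parentheses. Thick bars at 0 are the peak intervals, and points are summits. The 5 Trac peaks lie between Trac and Dad1, and the lost peaks of both inhibitors lie at nearly the same base inside Ube4a, where the MS-275 point is at 3.63 and the CXD101 point at 2.6.

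The CD3 chain genes lie side by side on chromosome 9. Cd3g (ENSMUSG00000002033.14) runs from 44969572 to 44980431 on the minus strand, Cd3d (ENSMUSG00000032094.8) from 44981786 to 44987339 on the plus strand, and Cd3e (ENSMUSG00000032093.7) from 44998740 to 45009627 on the minus strand. A single MS-275 gained peak, from 44986796 to 44987000, lay within 20 kb of all 3 genes. Its summit was in the 3′ UTR of Cd3d, and the edges of the peak were 6.37 kb from Cd3g and 11.7 kb from Cd3e. There were 104 MS-275 tags, or 90.9 at vehicle depth, over a vehicle level of 49. The fold enrichment was 1.84 (−log10 p-value 7.28), and 4.25% of the list had a lower fold enrichment. The vehicle level was among the highest of the list, with 96.2% of gained peaks below it. The 250 bp around the summit were 85.6% repeat sequence as marked in the assembly, where the list median was 9.2% and 7.84% of peaks were over 50%. Reads in repeats can align at several places, and the part of the repeat in this peak was not tested. No peak was found at the start of any CD3 gene.

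The lost peaks were near Cd3g only, 16.2 kb beyond its 3′ end and inside Ube4a, a ubiquitin ligase gene. The MS-275 lost peak ran from 44952920 to 44953333, where 28 vehicle tags stood over 6.99 with MS-275, and the fold enrichment was 3.63 (−log10 p-value 9.37). The CXD101 lost peak ran from 44952892 to 44953333, where 29 vehicle tags stood over 10.6 with CXD101, and the fold enrichment was 2.6 (−log10 p-value 6.13). Both summits lay in an exon of Ube4a that is coding in some of its transcripts, and the start of Ube4a, 12.5 kb away, was nearer than that of any receptor gene. The vehicle tags at this site were nearly the same in both lists because the vehicle libraries were the same.

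Cd247 (ENSMUSG00000005763.15, chromosome 1 from 165788681 to 165877277, plus strand), the zeta chain, whose tail carries most of the phosphorylation motifs of the complex, had 1 MS-275 gained peak. It ran from 165848813 to 165849202 in an intron, 60.3 kb from the start of the gene, where the annotated gene Gm37469 has an exon. There were 31 MS-275 tags, or 27.1 at vehicle depth, over a vehicle level of 9.28. The fold enrichment was 2.73 (−log10 p-value 6.26), and 19.9% of the list had a lower −log10 p-value. The peak was thus close to the list median of 2.88 in fold enrichment and had few tags. At 88.6 kb Cd247 is the longest of the 9 genes, which had a median length of 10.9 kb.

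The coreceptors and kinases had no peak within 20 kb in any list. Cd4 (ENSMUSG00000023274.14, chromosome 6 from 124864692 to 124888221, minus strand) binds MHC class II and marks helper T cells. Its closest peaks lay 31.3 kb away at the start of Ptms, one gained with MS-275 (65 MS-275 tags where vehicle stood at 18, fold enrichment 3.04) and one of MS-275 over CXD101 (fold enrichment 3.28). Cd8a (ENSMUSG00000053977.13, chromosome 6 from 71373427 to 71379173, plus strand) binds MHC class I and marks cytotoxic T cells. Its closest peaks were lost with MS-275 and with CXD101, both 79 kb away in Rmnd5a, with fold enrichments of 2.79 and 2.57. For Lck (ENSMUSG00000000409.14, chromosome 4 from 129548344 to 129573641, minus strand) the closest site was 209 kb away, called both as gained with MS-275 and as MS-275 over CXD101, and for Zap70 (ENSMUSG00000026117.10, chromosome 1 from 36761798 to 36782818, plus strand) it was 131 kb away and gained with MS-275. The genes without a call thus had no called site within reach, and a smaller change there was not detectable with these lists.

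The window of 20 kb decided some of the counts. The peak just inside it was the lost site in Ube4a, 16.2 kb from Cd3g. Just outside were the same site as seen from Cd3d, at 28.5 kb, the Ptms site 31.3 kb from Cd4, and a peak of MS-275 over CXD101 in an intron of Mpzl2, 31.7 kb from Cd3e, with a fold enrichment of 3.56.

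**Figure D2:**
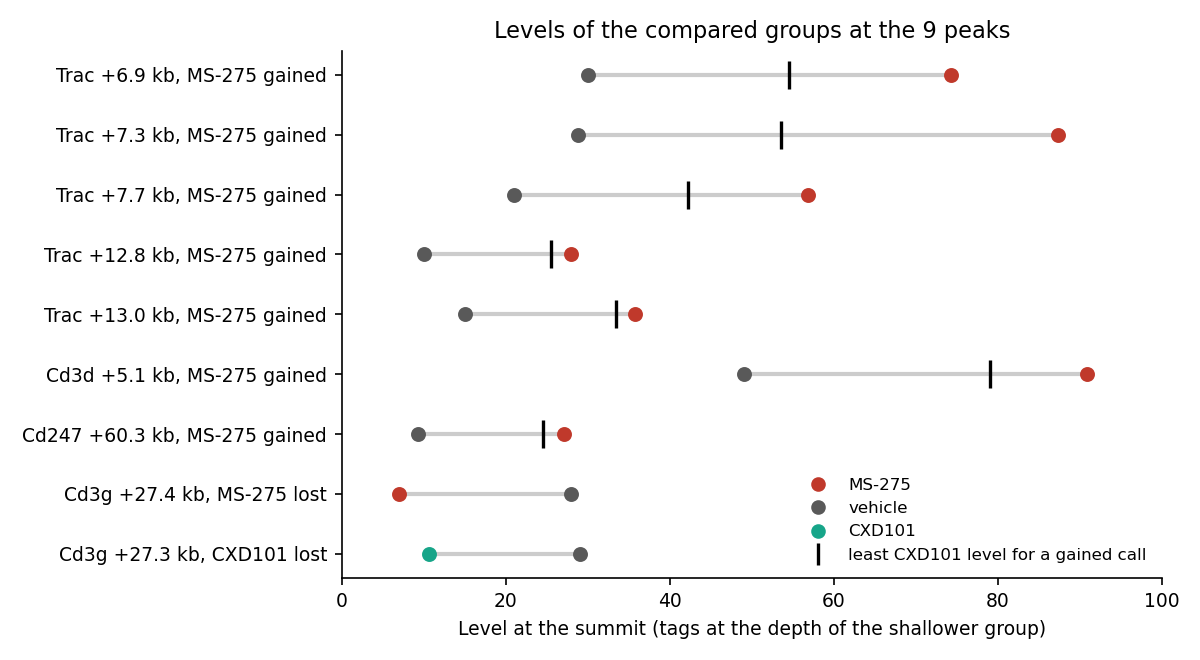
Level at the summit (horizontal axis, tags at the depth of the shallower group) of both compared groups at the 9 peaks, each named by its nearest gene, the distance of its summit from the start of that gene in the direction of transcription, and its list. Points are pooled libraries without error bars, and the black ticks are the lowest CXD101 level that could have been called gained over the vehicle level of that site. The 3 summits of the first Trac interval have vehicle levels from 21 to 30 and MS-275 levels from 56.8 to 87.4.

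The CXD101 gained list had no peak at these genes, and its detection limit was computed at each MS-275 gained site from the lowest −log10 p-value in that list, 4.5. At the second Trac summit a CXD101 fold enrichment of at least 1.83, or 61 CXD101 tags, would have been needed, where MS-275 had 2.97. At the other summits of the first Trac interval the limits were 1.79 and 1.96, against 2.43 and 2.63 for MS-275. At the other sites the limits were close to the MS-275 values, at 2.41 and 2.15 for the second Trac interval, 1.6 for Cd3d and 2.49 for Cd247. Thus an opening with CXD101 as large as that with MS-275 could have reached the lowest called p-value at each of the 7 sites, with the largest margin at the first Trac interval. A call also needs an excess over a minimal length, so these limits are the least folds. The depth of the groups was similar, with the MS-275 group 1.144 times and the CXD101 group 1.137 times as deep as vehicle. In the direct list of MS-275 over CXD101 no member site was called, so a difference between the inhibitors was not shown at any of them.

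The counts were then set beside those of all genes. In the MS-275 gained list 5 of the 9 genes (55.6%) had a peak, whereas 18.6% of all genes did. These 5 genes stand for 3 loci, since Cd3g, Cd3d and Cd3e shared their peak. In the MS-275 lost list 1 of 9 (11.1%) had a peak, beside 2.9% of all genes, and in the CXD101 lost list 1 of 9 (11.1%), beside 3.62%. No receptor gene had a peak in the CXD101 gained list (0.961% of all genes), in MS-275 over CXD101 (6.62%) or in CXD101 over MS-275 (0.0137%). Per length of window, the MS-275 gained list had 14.3 peaks per Mb around the receptor genes and 4.51 per Mb around all genes. At the latter rate the receptor windows would hold 2.2 peaks, and they held 7 peaks in 4 intervals. The median length was 10.9 kb for the receptor genes, of which Cd247 was the longest at 88.6 kb, and 17.4 kb for all genes. The part of length in these counts was not tested. Trac alone gave 5 of the 7 peaks, and with 1 or 0 peaks in the other lists little can be read from them.

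**Figure D3:**
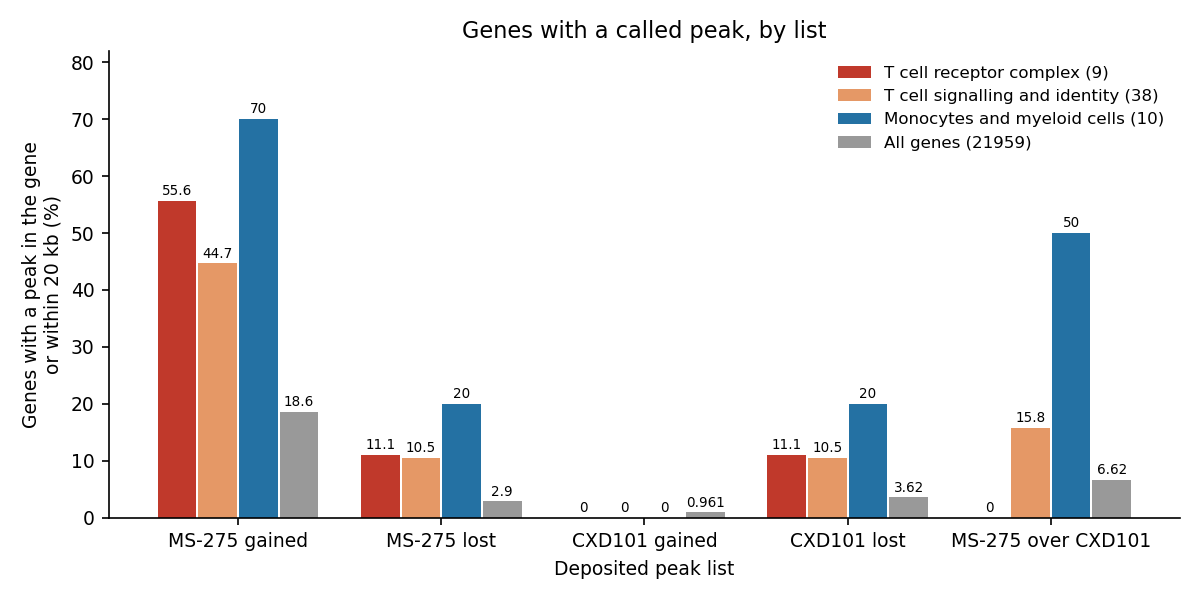
Share of genes (vertical axis, percent) with at least 1 peak in the gene or within 20 kb, in 5 of the deposited lists (horizontal axis), for the T cell receptor complex, 2 further gene lists and all genes, with the number of genes in parentheses. In the MS-275 gained list the receptor complex stands at 55.6% and all genes at 18.6%. In the CXD101 gained list no gene of the 3 lists has a peak, beside 0.961% of all genes.

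Among the 7 gained peaks, 1 had a fold enrichment above the list median of 2.88, and 2 had a −log10 p-value above the median of 10.3. By −log10 p-value they ranked from 1149 to 7326 of 8480.

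**Figure D4:**
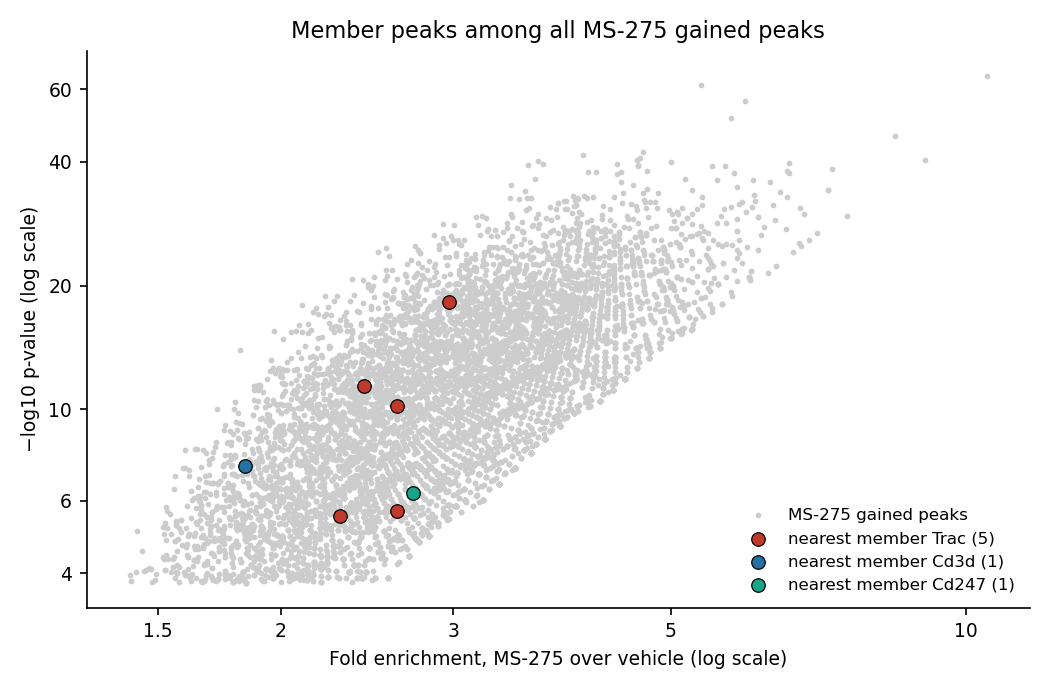
Fold enrichment of MS-275 over vehicle (horizontal axis, log scale) against −log10 p-value (vertical axis, log scale) for all MS-275 gained peaks in grey and the 7 peaks of the receptor complex in color by nearest gene. The strongest Trac peak is at 2.97 and 18.2, and the other 6 have fold enrichments from 1.84 to 2.73.

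Other genes of T cell receptor signalling and T cell identity were taken as a list of 38. In the MS-275 gained list 17 of them (44.7%) had a peak, beside 18.6% of all genes. In MS-275 lost 4 (10.5%) did, beside 2.9%, and in CXD101 lost 4 (10.5%), beside 3.62%. In CXD101 gained 0 did, beside 0.961%, and in MS-275 over CXD101 6 (15.8%), beside 6.62%. These genes were long, with a median of 42.9 kb against 17.4 kb for all genes, and the part of length in these shares was not tested. The genes with a gained peak included the adaptor gene Lcp2, which encodes SLP-76, the phospholipase gene Plcg1, the surface receptor genes Cd5 and Cd27, and the transcription factor genes Gata3, Lef1, Tox and Runx1. The Cd5 peaks lay 18.4 and 18.7 kb outside the gene, 40363 and 40641 bp from its start. In any list, 21 of the 38 genes had a peak. The remaining antigen receptor constant genes of the list, Trbc1, Trbc2 and Trdc, had none, nor did Lat. Cd2, Cd28, Cd8b1, Ctla4, Icos, Tcf7 and Bcl11b had none either. The same held for Fyn, Trat1, Prkcq, Rasgrp1, Csk and Ptpn22.

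Runx1, a transcription factor of both T cell and myeloid development, had the strongest peaks of this list, with 134 MS-275 tags where vehicle stood at 42.2 (fold enrichment 2.74, −log10 p-value 21) and 82 over 18.2 (fold enrichment 3.79, −log10 p-value 20.8). Runx1 also had 6 peaks of MS-275 over CXD101, the strongest with a −log10 p-value of 17.9. Genes with peaks in at least 2 of the lists against vehicle were Cd6, Zbtb7b, Pag1 and Ptpn6. Cd6, a coreceptor of T cells, had lost peaks 12.1 kb away with both inhibitors, with fold enrichments of 1.49 for MS-275 and 1.65 for CXD101. Pag1, an adaptor that recruits the LCK inhibitor CSK, had lost peaks in the gene body with a fold enrichment of up to 3.36 in both lists. Ptpn6, the phosphatase SHP-1, had lost peaks near 1.8 kb from the gene with fold enrichments of 1.51 and 1.39. Zbtb7b, the factor of the CD4 lineage, had gained peaks in the gene body with MS-275 (2.34 and 2.08) and lost peaks about 17.2 kb away with both inhibitors. At each of these lost sites the vehicle tags in both lists came from the same libraries.

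Markers of other cells in the sort were read in the same way, since CD11b, Ly-6C and Ly-6G but no T cell marker defined the gate. Of 10 monocyte and myeloid genes, 7 (70%) had a gained peak with MS-275, beside 18.6% of all genes. In MS-275 over CXD101 5 of them (50%) had a peak, beside 6.62% of all genes, and in each lost list 2 (20%), beside 2.9% for MS-275 and 3.62% for CXD101. The gained peaks were led by Spi1, the myeloid factor PU.1, with 127 MS-275 tags where vehicle stood at 24.4 (fold enrichment 4.41, −log10 p-value 37.4). Of 8 neutrophil genes 7 (87.5%) did, with a median gene length of 3.49 kb. Of 10 NK cell genes 2 (20%) did, Nkg7 and Eomes, of 10 B cell genes 1 (10%), Ebf1, and of 8 hepatocyte genes 1 (12.5%), Hnf4a. These last 3 shares rest on 1 or 2 genes each, beside 18.6% of all genes. In the lost lists, B cell genes with a peak were 1 of 10 (10%) for MS-275 and 2 of 10 (20%) for CXD101. All genes stood there at 2.9% and 3.62%, and the NK cell and hepatocyte genes at 0. Itgam and Ly6c2, genes of the sorted surface markers, were among those with gained peaks, at vehicle levels of 25.6 for Itgam and from 11 to 14.8 for Ly6c2. Itgam also had a lost site 10.6 kb away with MS-275 (fold enrichment 2.14) and with CXD101 (2.22). Cx3cr1, a receptor of monocytes, had gained peaks with MS-275 in its annotated gene body, with fold enrichments of 2.95 and 2.82. Their summits were far from its start, at 126204 and 92907 bp. Another site in the annotated Cx3cr1 gene body was lost with both inhibitors, with fold enrichments of at most 3.9 for MS-275 and 3.83 for CXD101. These 2 summits were 56812 and 56793 bp from the start. Ly6g, the marker that the gate excluded, had 3 gained peaks with MS-275, from 2.06 to 19.7 kb away, with fold enrichments from 2.69 to 2.99. Because the lists hold only differing sites, they give no level of the T cell or myeloid genes in vehicle cells outside those sites. The paper reports a high purity of the sorted cells. The part of T cells among the sorted cells in the Trac, Cd3d and Cd247 peaks was not tested.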

How the data were processed

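ATAC-seq libraries of sorted tumor M-MDSCs (2 each for vehicle, MS-275 and CXD101, grouped by treatment label) were aligned by the authors with Bowtie2 to mm10, and groups were compared with MACS2 2.2.7.1 on pooled libraries. The methods give a read shift of 0. The authors deposited for each peak the fold enrichment (a linear ratio), the −log10 p-value and −log10 q-value, and the summit offset. The methods name a p-value threshold, but the deposited lists end at a −log10 q-value of about 1.3 and reach down to a −log10 p-value of 3.79, which is weaker than the threshold named, so a call here means presence in a list.

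Here, each of several summits in an interval was 1 peak. Tags and control levels were solved from fold enrichment and −log10 p-value under the MACS2 rules (pseudocount 1, Poisson tail, tolerance 0.0005). All 11800 peaks were solved, 26 with a second solution and none of these at the genes described. The method was tested on simulated peaks. The absolute depth per library was not used here. Genes came from GENCODE M21 and sequence from GRCm38. Genes named from the other lists had peaks in at least 2 of the 4 lists against vehicle or were among the 5 strongest, and other genes were named after their values were seen. The members and gene lists were chosen with earlier results of these data known. Alternatives were stricter q-values and folds, intervals, other windows and a pseudocount of 0. Comparisons share libraries and were not tested against each other. Python 3.11.15, NumPy 2.4.6, SciPy 1.17.1, pysam 0.24.0 and matplotlib 3.10.9 were used.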

Additional observations from a re-analysis of the deposited data

How the results depend on the processing

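No paired analysis was possible because each list gives 1 value for the pooled libraries of a group. Leaving out each replicate in turn was not run for the same reason. Of 54 alternative counts, 39 stayed within 1.5 times the reported count. These 39 include counts of 0 that stayed 0 for CXD101 gained and for MS-275 over CXD101. Only the window of 50 kb could have raised a count of 0, so the other rules tell nothing there. The 7 MS-275 gained peaks became 4 as distinct intervals and 2 in gene bodies alone. The 5 genes with such a peak became 2 with a fold enrichment of at least 2, since the Cd3d peak was lost, and 2 in gene bodies alone. They became 3 within 5 kb and 3 where the nearest gene start had to be a receptor gene. The share of all genes was not computed under these rules. These counts therefore cannot be set beside the 18.6% of all genes within 20 kb. The MS-275 lost peak was absent (0) in gene bodies alone, within 5 kb and under the nearest-start rule. So was the CXD101 lost peak (0), and also with a −log10 q-value of at least 3. Within 50 kb there were 2 CXD101 lost peaks and 3 of MS-275 over CXD101, where 0 had been found. With a pseudocount of 0, 75 of the 11800 peaks could be solved. How much each library gave to a call is unknown, and depth limits the sites with few tags, from 28 at the MS-275 lost peak to 32 at the fourth Trac summit.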

Other observations

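The gamma locus of the T cell receptor, from its first to its last annotated segment (174.7 kb), had MS-275 gained peaks as well, and was looked at after the Trac peaks had been seen. They were 2 summits in 1 interval, on chromosome 13 from 19219303 to 19219782, after the end of the constant region Tcrg-C1 by 2.35 and 2.68 kb. The first had 23 MS-275 tags where vehicle stood at 6.8 (fold enrichment 2.71, −log10 p-value 5.02), and the second had 44 tags over 9.2 (fold enrichment 3.87, −log10 p-value 12.6). The gamma chain pairs with the delta chain in another class of T cells. No other list had a peak in this locus.

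Syk, the relative of ZAP-70 that B cells and myeloid cells use, had a lost peak in its gene body with both inhibitors, 20 kb from the start. With MS-275, 70 vehicle tags stood over a level of 16.3 (fold enrichment 4.11, −log10 p-value 22.9), and with CXD101 the same 70 vehicle tags stood over 17.8 (fold enrichment 3.78, −log10 p-value 20.8). Zap70 itself had no peak within 20 kb in any list.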
